A study of Mus musculus with 36 samples.

Results

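The cochlear transcripts described here encode the glucocorticoid receptor (Nr3c1), the mineralocorticoid receptor (Nr3c2), both 11-beta-hydroxysteroid dehydrogenases (Hsd11b1 and Hsd11b2), the corepressor Ncor1 and the coactivators Ncoa1 and Ncoa2. They are 7 of the 39017 genes in the deposited count table. They were chosen by name, and their Ensembl IDs were matched to symbols in GENCODE M21 (GRCm38). RNA was sequenced from the cochlea, the coiled hearing organ, of adrenalectomized (ADX) and sham-operated mice of the CBA/Sca strain, all aged 12 weeks. Adrenalectomy removes the adrenal glands, the main source of corticosterone and aldosterone. Cochleae were collected every 4 h between circadian time 4 (CT04) and CT24, and each of the 12 combinations of status and time had 3 libraries, 36 in all. The sources used here do not state whether animals were pooled or whether ADX animals received replacement hormone.

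Corticosterone, the main glucocorticoid of rodents, binds the glucocorticoid receptor and, with higher affinity, the mineralocorticoid receptor. Both receptors enter the nucleus and act on transcription together with coactivators, which open chromatin, and corepressors, which recruit histone deacetylases. The 11-beta-hydroxysteroid dehydrogenases set how much active hormone reaches a receptor inside the cell: the product of Hsd11b1 mostly regenerates active hormone from its inactive keto form, and that of Hsd11b2 inactivates it. Receptors for both hormone classes are known in the inner ear.

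Library totals lay between 20351081 and 28947793 counts in ADX and between 18999408 and 28995197 counts in sham. Of 16 cochlear marker genes, 15 had a median of at least 1 CPM, the count scaled to a common library total. Some libraries carried neighbouring tissue. The summed CPM of 14 skeletal muscle markers reached 905 in ADX CT20 replicate 3 and at most 160.1 in sham. That of the pituitary markers reached 167 in ADX and 1546 in sham CT16 replicate 3. In bulk tissue, fewer cells of a type and less RNA per cell cannot be told apart. All 7 genes passed the filter on low counts, which kept 22556 genes.

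None of the 7 transcripts passed the test of ADX against sham over the mean of the 6 times. The highest estimate was that of Nr3c2 and the lowest that of Hsd11b1, with log2 fold changes of 0.10 and -0.11. By the quasi-likelihood test of edgeR, 0 of 7 had a Benjamini-Hochberg adjusted p under 0.05, where 0.718% of all tested genes did. At an unadjusted p under 0.05 there were 3 (Nr3c2, Hsd11b1 and Ncor1), where 15.6% of all genes passed, and DESeq2 called 1 (Ncor1) among 630 genes in all. Over the 7 genes 4 estimates were above and 3 below 0, with a median of 0.0066 on the log2 scale, against 0.0011 over all tested genes.

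**Figure D1:**
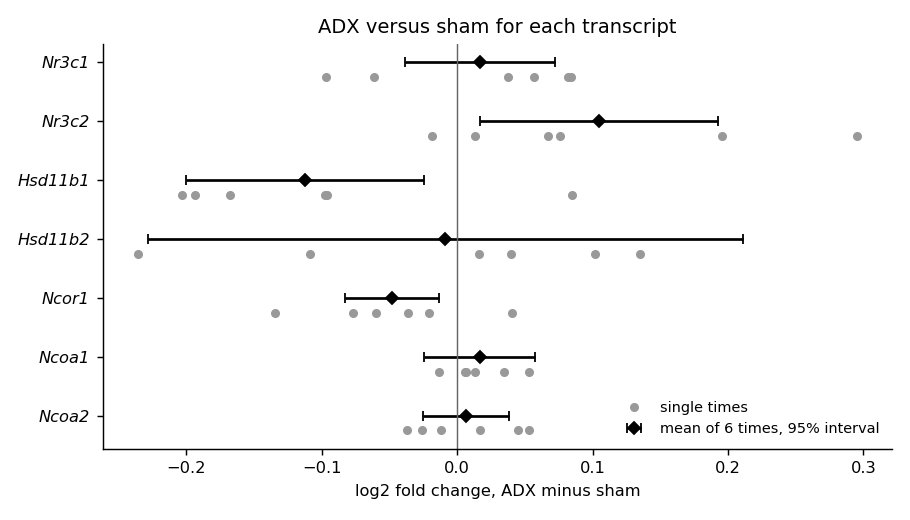
Log2 fold change, ADX minus sham, of each transcript (horizontal axis): black diamonds are the mean of the 6 times with its 95% interval, grey points the 6 single times. The intervals of Nr3c2, Hsd11b1 and Ncor1 lie on one side of 0 before adjustment over all genes, and that of Hsd11b2 is the widest, between -0.23 and 0.21.

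Nr3c1 encodes the glucocorticoid receptor (ENSMUSG00000024431, chromosome 18, 39410545 to 39519421, minus strand). Its 18 ADX libraries ranged between 108 and 146 CPM with a median of 122 CPM, and its 18 sham libraries between 109 and 132 CPM with a median of 122 CPM. The ranges overlapped almost entirely, and the highest library was ADX CT20 replicate 2. Its log2 fold change over the mean of the 6 times was 0.017 ± 0.027 (SE), with a 95% interval between -0.038 and 0.072 (edgeR adjusted p = 0.819). Without ADX CT20 replicate 2 it was -0.0019.

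At single times the libraries of the statuses did not overlap for this transcript at CT12 and CT16, in opposite directions. At CT12 it had 121, 127 and 124 CPM in ADX and 120, 118 and 121 CPM in sham. At CT16 it had 122, 117 and 123 CPM in ADX and 131, 124 and 132 CPM in sham. All ADX libraries lay above sham at CT12 and below sham at CT16, by less than 10 CPM in the means. Of all genes, 5.09% and 6.49% were separated that way at these times. The nearest libraries at CT12 had 121.42 CPM in ADX and 120.85 CPM in sham. The log2 fold changes were 0.057 ± 0.067 and -0.097 ± 0.066, and neither passed the test (edgeR adjusted p = 0.988 and 0.718). A fitted 24 h rhythm was not called in ADX or in sham (peak-to-trough 0.051 ± 0.057 and 0.13 ± 0.057 on the log2 scale, edgeR adjusted p = 0.815 and 0.238).

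Nr3c2 encodes the mineralocorticoid receptor (ENSMUSG00000031618, chromosome 8, 76899442 to 77245012, plus strand). It ranged between 42.2 and 65.1 CPM in ADX with a median of 48.9 CPM, and between 36.1 and 55.6 CPM in sham with a median of 45.5 CPM. ADX was the higher at 5 of the 6 times by the fitted means, while the ranges overlapped. Its log2 fold change was 0.10 ± 0.043, with a 95% interval between 0.017 and 0.19, and it did not pass adjustment over all genes (edgeR adjusted p = 0.220, unadjusted p = 0.0210). All 10 B lymphocyte markers also had estimates above 0 over this mean and at each of the 6 times, with a median of 0.31 over the mean, and 1 of them, Ighm, rose in ADX. Their summed CPM lay between 1346 and 2616 in ADX and between 890.4 and 1839 in sham. Where this sum was lowest (sham CT08 replicate 1) Nr3c2 had 51.9 CPM. Where it was highest (ADX CT24 replicate 1) Nr3c2 had 45.1 CPM. All 8 tested erythroid markers had estimates below 0 over the mean. Their sum was lowest in ADX CT04 replicate 1 (13048), where Nr3c2 had 65.1 CPM. It was highest in sham CT04 replicate 1 (31437), where Nr3c2 had 43.3 CPM. The part of these cell types in the values of Nr3c2 was not tested.

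The highest single-time estimate of the 7 transcripts was that of Nr3c2 at CT04. There it had 65.1, 48.1 and 57.3 CPM in ADX and 43.3, 47.8 and 47.7 CPM in sham. Every ADX library exceeded every sham library, although ADX replicate 2 did so by less than 1 CPM. The difference of 0.29 ± 0.10 on the log2 scale did not pass (edgeR adjusted p = 0.358). At CT04 the summed CPM of markers of neutrophils and their precursors lay between 5298 and 5932 in ADX and between 8023 and 8769 in sham. That of the erythroid markers lay between 13048 and 20192 in ADX and between 20594 and 31437 in sham. All 10 B lymphocyte markers had estimates above 0 there. The part of these cell types in the CT04 values of Nr3c2 was not tested. At CT16 Nr3c2 had 44.7, 49.6 and 44.3 CPM in ADX and 45.6, 36.1 and 39.2 CPM in sham. These groups overlapped, with a difference of 0.20 ± 0.11 on the log2 scale (edgeR adjusted p = 0.655).

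Among the 6 times, Nr3c2 was highest in sham at CT12, with 55.6, 50.5 and 53.9 CPM, and lowest there at CT16. In ADX the highest mean was at CT04 (56.8 CPM) and the lowest at CT24 (44.7 CPM). Its fitted peak-to-trough was 0.19 ± 0.10 in ADX and 0.23 ± 0.10 in sham, and neither was called (edgeR adjusted p = 0.433 and 0.249). A few reads of Nr3c2 may belong to the opposite-strand long noncoding RNA Gm10649, whose exons overlap it and which held 903 counts in all libraries against 42731 of Nr3c2. The libraries were made with a strand-specific kit, but the sources used here do not state the strand setting of the counting.

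The ratio of Nr3c1 to Nr3c2 within a library was compared per length, as TPM (counts over gene length, scaled to a common total) with 0.1 added. It averaged 2.41 ± 0.23 in ADX and 2.57 ± 0.35 in sham (SD, n = 18 each). The mean log2 difference was -0.086, and a two-sided permutation test within times gave p = 0.0511 (0.102 after Benjamini-Hochberg adjustment over 2 ratios). At CT04 the ratio was 1.996, 2.17 and 2.20 in ADX and 2.46, 2.37 and 2.51 in sham. At CT16 it was 2.63, 2.28 and 2.69 in ADX and 2.78, 3.33 and 3.24 in sham. At CT24 it was 2.586, 2.52 and 2.397 in ADX and 2.73, 2.88 and 2.595 in sham. All ADX values lay below all sham values at these 3 times. The nearest libraries at CT16 had 2.69 in ADX and 2.78 in sham, and at CT24 they were almost equal, with 2.586 and 2.595. At the other times the mean ratio was the higher in ADX, with 2.41 in ADX and 2.37 in sham at CT08, 2.29 in ADX and 2.17 in sham at CT12, and 2.63 in ADX and 2.61 in sham at CT20. Single times were not tested for this ratio, and the share of other gene pairs so separated was not counted. Without the 5 libraries whose growth hormone transcript exceeded 50 CPM, the log2 difference was -0.055 (permutation p = 0.325).

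**Figure D2:**
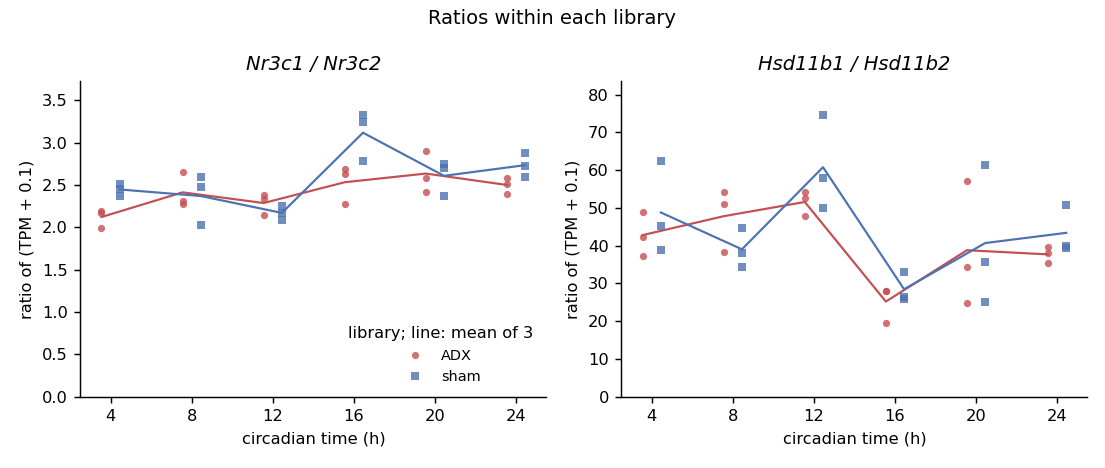
Ratio of Nr3c1 to Nr3c2 (left) and of Hsd11b1 to Hsd11b2 (right) in each library, from TPM plus 0.1, by circadian time in hours; red circles are ADX, blue squares sham, and lines join the means of 3 libraries. The receptor ratio has its highest mean in sham at CT16 (3.12), and the enzyme ratio its lowest mean at CT16 in ADX (25.2) and in sham (28.5).

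Hsd11b1 encodes the enzyme that regenerates active glucocorticoid (ENSMUSG00000016194, chromosome 1, 193221634 to 193264075, minus strand). It ranged between 22.2 and 30.7 CPM in ADX with a median of 25.01 CPM, and between 22.6 and 33.6 CPM in sham with a median of 26.98 CPM. ADX was the lower at 5 of 6 times by the fitted means, and the ranges overlapped. Its log2 fold change was -0.11 ± 0.043, with a 95% interval between -0.20 and -0.024, and it did not pass adjustment (edgeR adjusted p = 0.188, unadjusted p = 0.0143). Without the 5 libraries of high growth hormone transcript it was -0.058.

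Over the same mean, several marker lists of other cell types had every tested estimate below 0. All 11 osteoblast markers did and 3 of them fell in ADX, with a summed CPM between 3170 and 4207 in ADX and between 3616 and 6563 in sham. All 12 markers of neutrophils and their precursors did and 3 of them fell, with a summed CPM between 5298 and 10077 in ADX and between 7126 and 12141 in sham. The 8 tested erythroid markers did and 0 fell, with a summed CPM between 13048 and 26360 in ADX and between 18014 and 31437 in sham, and the 6 tested pituitary markers did and 0 fell. Of the 16 cochlear markers 14 also had estimates below 0, with a median of -0.040. By contrast, 13 of 14 skeletal muscle markers and all 10 B lymphocyte markers had estimates above 0. The part of these cell types in the values of Hsd11b1, and of Ncor1, which had a negative estimate too, was not tested.

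The groups separated for Hsd11b1 at CT12, with 24.103, 22.2 and 24.9 CPM in ADX and 27.2, 27.6 and 26.8 CPM in sham. All 3 ADX libraries were lower, and the log2 fold change of -0.19 ± 0.11 did not pass (edgeR adjusted p = 0.932). At CT20 it had 26.5, 23.4 and 27.9 CPM in ADX and 26.1, 33.6 and 29.7 CPM in sham. Those groups overlapped, and the difference of -0.20 ± 0.10 in log2 units did not pass (edgeR adjusted p = 0.710).

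Across the day Hsd11b1 was highest at CT24, with 25.5, 28.5 and 30.7 CPM in ADX and 30.8, 28.9 and 30.9 CPM in sham. The rhythm shared by both statuses was called, with a fitted peak-to-trough of 0.20 on the log2 scale and a peak at 22.0 h (edgeR adjusted p = 0.0404). In each status alone it was not called, with 0.15 ± 0.089 in ADX and 0.25 ± 0.088 in sham (edgeR adjusted p = 0.482 and 0.0994). The shared call was lost in 10 of the 36 fits without 1 library (adjusted p up to 0.079), and at the times in the column names it was 0.0511. Hsd11b1 lies across the opposite-strand gene Lamb3 in the annotation, with no exons in common.

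Hsd11b2 encodes the enzyme that inactivates glucocorticoid and shields the mineralocorticoid receptor in aldosterone-sensitive epithelia (ENSMUSG00000031891, chromosome 8, 105518755 to 105523988, plus strand). It was the scarcest of the 7, with 11 to 59 counts per library. It ranged between 0.599 and 2.08 CPM in ADX with a median of 1.04 CPM, and between 0.509 and 1.74 CPM in sham with a median of 0.974 CPM. The groups overlapped throughout, also at every single time. Its log2 fold change was -0.0086 ± 0.11, with a 95% interval between -0.23 and 0.21 (edgeR adjusted p = 0.987). Differences within that interval are not excluded at this depth. The interval is not a limit of detection, because calls were adjusted over all genes.

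The transcript differed between hours in ADX and in sham. At CT16 it had 1.62, 1.36 and 2.08 CPM in ADX and 1.56, 1.49 and 1.58 CPM in sham. At CT12, the time before, it had 0.773, 0.599 and 0.718 CPM in ADX and 0.846, 0.718 and 0.509 CPM in sham. Within each status every CT16 library exceeded every CT12 library. These were the times of its highest and lowest means, and the share of all genes so separated was not counted. At CT20 the libraries were spread, with 1.77, 1.10 and 0.738 CPM in ADX and 1.74, 0.851 and 1.36 CPM in sham.

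A shared rhythm of Hsd11b2 was called with a fitted peak-to-trough of 0.86 on the log2 scale and a peak at 19.13 h (edgeR adjusted p = 0.00195), and it passed in each of the 36 fits without 1 library. In ADX alone the rhythm was called, with 0.93 ± 0.26 and a peak at 19.16 h (edgeR adjusted p = 0.0475), although 9 of the 36 such fits kept the call. In sham alone the value was 0.79 ± 0.26 with a peak at 19.101 h, and it was not called (edgeR adjusted p = 0.0790). The test of any difference between the 6 times passed in ADX and in sham (edgeR adjusted p = 0.0115 and 0.0208), where 9.68% and 16.19% of all genes passed it. The difference in rhythm between the statuses was 0.14 ± 0.37 and did not pass (edgeR adjusted p = 1). Markers of middle ear epithelium were present, with a summed CPM between 1466 and 3503 in ADX and between 1353 and 3789 in sham. Of these, 2 of the 6 tested had a shared rhythm, where 32.5% of all genes did, and their part in the values of Hsd11b2 was not tested.

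The ratio of Hsd11b1 to Hsd11b2 ran opposite to the swing of Hsd11b2. It averaged 40.7 ± 11.14 in ADX and 43.5 ± 13.8 in sham (SD, n = 18 each), a log2 difference of -0.090 (permutation p = 0.403). Its means were highest at CT12, with 51.6 in ADX and 60.8 in sham, where Hsd11b2 had its lowest means. The highest single ratio, 74.6 in sham CT12 replicate 3, rests on 11 counts of Hsd11b2. With lengths taken as the union of GENCODE exons the averages were 10.4 in ADX and 11.17 in sham, so the size of this ratio depends on the gene length used.

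**Figure D3:**
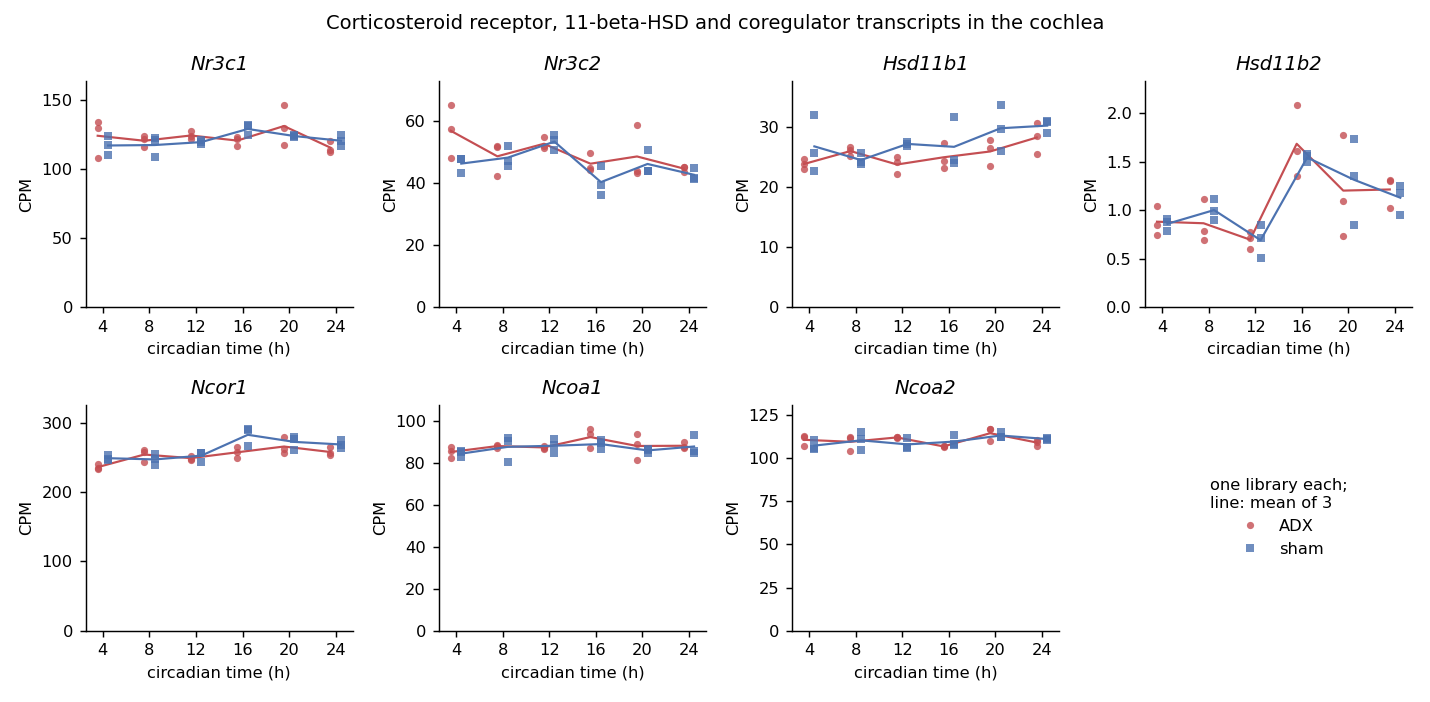
CPM of the 7 transcripts (vertical axes, starting at 0) by circadian time in hours; red circles are ADX, blue squares sham, 1 symbol per library, and lines join the means of 3. Hsd11b2 is highest at CT16 in ADX and in sham, Ncor1 has its highest mean in sham at CT16 (283 CPM), and Ncoa1 and Ncoa2 stay nearly level.

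Ncor1 encodes a corepressor that binds nuclear receptors and holds histone deacetylase 3 (ENSMUSG00000018501, chromosome 11, 62316426 to 62458541, minus strand). It ranged between 233 and 279 CPM in ADX with a median of 255 CPM, and between 238 and 291 CPM in sham with a median of 259 CPM. ADX was the lower at 5 of 6 times by the fitted means, with overlapping ranges. Its log2 fold change was -0.048 ± 0.017, with a 95% interval between -0.083 and -0.013. It did not pass in edgeR (adjusted p = 0.153, unadjusted p = 0.00860), and in DESeq2 it did (adjusted p = 0.0497). Without the 5 libraries of high growth hormone transcript the log2 fold change was -0.033.

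The lowest single-time estimate of Ncor1 was at CT16, with 265, 249 and 258 CPM in ADX and 267, 291 and 290 CPM in sham. Every ADX library lay below every sham library, and sham replicate 1 was within 2 CPM of ADX replicate 1. The difference of -0.13 ± 0.042 in log2 units did not pass (edgeR adjusted p = 0.437). At CT04 it had 234, 233 and 240.4 CPM in ADX and 246, 253 and 248 CPM in sham, again with no overlap. There the difference was -0.077 ± 0.042 in log2 units (edgeR adjusted p = 0.580).

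Ncor1 had a called rhythm in sham, with a peak-to-trough of 0.19 ± 0.038 on the log2 scale and a peak at 18.9 h (edgeR adjusted p = 0.00205). In ADX it was 0.11 ± 0.038 with a peak at 18.5 h and was not called (edgeR adjusted p = 0.133). The difference between the statuses was -0.084 ± 0.054 and did not pass (edgeR adjusted p = 1), so a weaker rhythm in ADX is not shown. The shared rhythm was called with 0.15 and a peak at 18.7 h (edgeR adjusted p = 0.000269), and it passed in each of the 36 fits without 1 library. Exons of Ncor1 overlap those of the opposite-strand genes Ttc19 and Pigl, which held 18978 and 10148 counts against 231175 of Ncor1. Reads in the shared stretch could have been counted for either gene.

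Of the 7 transcripts, 1 was called rhythmic in ADX (Hsd11b2), where 9.4% of all tested genes were. In sham 1 was called (Ncor1), where 16.08% of all genes were. The shared rhythm was called for 3 (Hsd11b2, Ncor1 and Hsd11b1), where 32.5% of all genes were. The 6 times span a single 24 h cycle, so the return of a pattern on a further day was not observed. Libraries were read in pools of 6. Where pools followed the times, a shared difference between times cannot be told apart from one between pools. The difference in rhythm was called for 0 of 7 in edgeR and in DESeq2, with 0.0% of all genes called in edgeR, and at an unadjusted p under 0.05 there were 0 of the 7 and 3.57% of all genes. The test of an interaction of status and time likewise called 0 of 7 in both tools and 0.0% of all genes in edgeR, and at an unadjusted p under 0.05 it had 0 of the 7 and 4.83% of all genes.

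The stretch around the annotated start is shown for the rhythmic members that have a window in the RefSeq promoter table, namely Hsd11b1 and Ncor1. Each window runs between 250 bases before the start and 50 after it (RefSeq, GRCm38.p6), and all lie on the minus strand. The Hsd11b1 window surrounds a start inside the gene as annotated in GENCODE, where the outermost start on this strand is at 193264075. Capitals mark AGAACA, the single-sided core of the glucocorticoid response element, or its reverse complement.
Hsd11b1, chr1:193242311-193242610: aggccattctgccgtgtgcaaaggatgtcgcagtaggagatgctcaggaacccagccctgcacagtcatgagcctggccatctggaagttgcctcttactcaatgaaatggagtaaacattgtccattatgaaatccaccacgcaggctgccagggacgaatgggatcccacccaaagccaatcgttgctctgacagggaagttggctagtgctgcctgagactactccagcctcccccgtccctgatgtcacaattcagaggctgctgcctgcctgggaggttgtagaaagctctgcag
Ncor1 downstream start, chr11:62438466-62438765: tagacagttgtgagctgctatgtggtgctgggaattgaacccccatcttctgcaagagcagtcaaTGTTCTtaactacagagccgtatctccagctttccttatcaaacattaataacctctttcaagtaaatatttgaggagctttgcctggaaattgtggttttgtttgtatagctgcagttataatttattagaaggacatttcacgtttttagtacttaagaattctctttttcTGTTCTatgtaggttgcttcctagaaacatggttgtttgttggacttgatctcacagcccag
Ncor1 upstream start, chr11:62457283-62457582: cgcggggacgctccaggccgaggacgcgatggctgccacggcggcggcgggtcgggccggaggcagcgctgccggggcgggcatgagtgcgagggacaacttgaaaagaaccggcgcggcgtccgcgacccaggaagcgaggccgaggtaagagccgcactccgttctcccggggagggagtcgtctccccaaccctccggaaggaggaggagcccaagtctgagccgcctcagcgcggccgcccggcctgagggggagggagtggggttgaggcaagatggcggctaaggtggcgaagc

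Member windows were taken outside chromosome 18, which holds Nr3c1, so that gene was not searched. There were 5 windows for 4 of the 7 genes (Hsd11b1, Ncoa1, Ncor1 and Nr3c2). The downstream Ncor1 window has AGAACA on the opposite strand at -185 and -12 from the start, and it is poor in G and C (38.3%) beside the upstream one (72.3%). The Hsd11b1 window, at 54.7% G and C, has no AGAACA. Searched on both strands, AGAACA occurred in 19.0% of all 32851 windows of this length, and the Ncoa1 window also held it once. The other motifs searched were the E-box CACGTG (7.15% of windows), the D-box TTATGTAA (0.938%), the RORE core AGGTCA (5340 of the windows), the cyclic AMP response element TGACGTCA (1.79%), the Sp1 site GGGCGG (35.7%), the heat shock element (0.603%) and the full palindromic glucocorticoid response element (0.00913%), which contains AGAACA. None of these but the Sp1 site was found in the 5 windows. A match is a description of letters, not evidence of binding.

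Ncoa1 encodes a p160 coactivator that binds the hormone-occupied receptor (ENSMUSG00000020647, chromosome 12, 4247362 to 4477182, minus strand). It ranged between 81.7 and 96.4 CPM in ADX with a median of 87.6 CPM, and between 80.7 and 93.5 CPM in sham with a median of 86.7 CPM. The groups overlapped at every time. For ADX against sham its log2 fold change was 0.017 ± 0.020, with a 95% interval between -0.025 and 0.058 (edgeR adjusted p = 0.753). Its peak-to-trough was 0.074 ± 0.040 in ADX and 0.047 ± 0.040 in sham, and neither was called (edgeR adjusted p = 0.411 and 0.660).

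Ncoa2 encodes a related p160 coactivator, which also takes part in repression by the glucocorticoid receptor (ENSMUSG00000005886, chromosome 1, 13139105 to 13374083, minus strand). It ranged between 104 and 117 CPM in ADX with a median of 111 CPM, and between 105 and 115 CPM in sham with a median of 111 CPM. The estimate of its log2 fold change was 0.0066 ± 0.015, with a 95% interval between -0.025 and 0.038 (edgeR adjusted p = 0.881). At CT12 it had 112, 112 and 112 CPM in ADX and 112, 106 and 106 CPM in sham, and at CT16 it had 107, 107 and 107 CPM in ADX and 107.5, 113 and 108 CPM in sham. ADX lay above sham at CT12 and below it at CT16, each time with at most 1 CPM between the nearest libraries, with adjusted p of 0.956 and 0.805 in edgeR. No rhythm was called (peak-to-trough 0.016 ± 0.033 in ADX and 0.048 ± 0.033 in sham, edgeR adjusted p = 0.948 and 0.541).

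Over all members and times, the libraries of the statuses did not overlap in 8 of 42 pairs of gene and time, 3 with ADX higher and 5 with ADX lower. The pairs with ADX higher were Nr3c2 at CT04, where 8.07% of all genes were separated that way, and Nr3c1 and Ncoa2 at CT12, where 5.09% were. The pairs with ADX lower were Ncor1 at CT04 (8.46% of all genes), Hsd11b1 at CT12 (5.34%), and Nr3c1, Ncor1 and Ncoa2 at CT16 (6.49%). With ADX higher at CT16 there were 0 members, where 7.1% of all genes were separated that way. At CT08, CT20 and CT24 no member was separated, where 4.45%, 5.12% and 6.03% of all genes had ADX higher and 3.93%, 4.13% and 6.01% had ADX lower. None of the 42 passed the edgeR test at its time, where 0.0% of all genes passed at each time except CT20 with 0.00443%. At an unadjusted p under 0.05 there were 2, Nr3c2 at CT04, where 9.3% of all genes passed, and Ncor1 at CT16, where 7.95% did. At CT08, CT12, CT20 and CT24 there were none, where 4.28%, 5.41%, 7.49% and 5.74% of all genes passed, and DESeq2 called 0 of the 42.

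Per length, with the deposited gene lengths, Ncor1 was the most abundant (141 TPM on average over 36 libraries). Nr3c1 followed with 57.6 TPM, Ncoa2 with 42.8, Hsd11b1 with 35.6, Nr3c2 with 23.3, Ncoa1 with 16.6 and Hsd11b2 with 0.820 TPM. The ranges of neighbours overlapped between Ncoa2 and Hsd11b1, between Hsd11b1 and Nr3c2, and between Nr3c2 and Ncoa1. With the union of GENCODE exons as the length, the order was Ncor1 (47.7 TPM), Nr3c1 (37.7), Ncoa1, Nr3c2 (17.6), Ncoa2 (16.7), Hsd11b1 (14.8) and Hsd11b2 (1.41). Ncor1, Nr3c1 and Hsd11b2 kept their places, although Ncor1 and Nr3c1 then overlapped, and the places of the other 4 depended on the length.

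The members differed in how steady they were. The SD of log2 CPM of Ncoa2 over 36 libraries was 0.044, and 2.24% of the 2189 genes with a mean within 0.5 log2 units of its own had a smaller one. For Ncoa1 that share was 13.0%, for Ncor1 38.5% and for Nr3c1 52.1%. It was 74.7% for Hsd11b1, 79.7% for Hsd11b2 and 86.8% for Nr3c2. Within groups, the share fell to 40.7% for Hsd11b2 and 14.2% for Ncor1, the members whose spread lay most between groups.

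Over the 12 group means, the protein-coding genes most like each member in Pearson's r were taken from 15037 genes with a mean of at least 1 CPM. All points share libraries and times, so the values describe likeness only. Ncor1 was closest to Fhod1 (r = 0.98), Slc6a4 (0.98) and Rasgrp2 (0.97). Hsd11b1 was closest to Tmbim6 (0.97), Gpr34 (0.90) and Tpp1 (0.88), and Nr3c2 to Lrp3 (0.96), Pianp (0.95) and Pkia (0.94). Hsd11b2 was closest to Spaca4, Xlr3a and Kcnj14 (0.93 each). Nr3c1, with Mmrn2, Zbtb9 and Ash1l, had no likeness above 0.85. Ncoa1 was closest to Plcb1 (0.93), Psme2b (0.85) and Slc25a47 (0.84), and Ncoa2 to Ntn1 (0.86), Atf7 (0.86) and Cdyl2 (0.84). Among the members themselves, Nr3c2 ran against Ncor1 (r = -0.82) and Hsd11b2 (r = -0.74).

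Other genes that act with these receptors gave 0 calls for ADX against sham in every list, where 0.718% of all genes were called. The lists held 18 chaperones and transport factors, 15 tested coactivators, 12 tested corepressors, 14 tested kinases and DNA-binding partners, 8 tested steroid-metabolizing genes and 7 related receptors. Among related receptors, Esrrb, an orphan receptor of the inner ear, came nearest, with 104 ± 15.5 CPM in ADX and 116 ± 17.8 CPM in sham (SD, n = 18 each) and a difference of -0.16 ± 0.039 in log2 units (edgeR adjusted p = 0.0511). Of the 18 chaperones and transport factors, 17 had estimates below 0, with a median of -0.039.

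Chaperones keep unliganded receptors ready to bind hormone, and importins and exportins carry proteins through the nuclear pore. In the list of 18 such chaperones and transport factors the shared rhythm was called for 14, where 32.5% of all genes were. In ADX 11 were called and in sham 13, where 9.4% and 16.08% of all genes were. Hsp90ab1, a cytosolic chaperone of the receptors, had a peak-to-trough of 0.55 ± 0.088 in ADX and 0.69 ± 0.088 in sham, with peaks at 18.9 h and 18.4 h. Hsp90aa1 had 0.67 ± 0.11 in ADX and 0.82 ± 0.11 in sham, and St13, a cochaperone, had 0.36 ± 0.065 in ADX and 0.51 ± 0.065 in sham. Calr, the calcium-binding chaperone calreticulin, which can bind the receptors, had 0.67 ± 0.084 in ADX and 0.85 ± 0.084 in sham. Their shared rhythms had adjusted p between 6.64e-11 and 4.27e-08 in edgeR.

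Of 15 coactivators 7 had a called shared rhythm, among them Ncoa3, the third p160 coactivator, with 0.20 ± 0.039 in ADX and 0.26 ± 0.039 in sham (edgeR adjusted p = 7.39e-07), and the histone acetyltransferases Crebbp and Ep300, with peaks in ADX at 16.4 h for both. Of 12 corepressors 6 did, among them Hdac3, the deacetylase held by Ncor1, with 0.12 ± 0.046 in ADX and 0.23 ± 0.046 in sham and peaks at 8.36 h and 7.42 h, away from that of Ncor1. Of the 8 steroid-metabolizing genes 2 did. Por, the electron donor of microsomal cytochromes P450, had 0.47 ± 0.054 in ADX and 0.64 ± 0.054 in sham (edgeR adjusted p = 2.25e-12), and Hsd17b11, a hydroxysteroid dehydrogenase, had 0.10 ± 0.055 in ADX and 0.15 ± 0.055 in sham. Of 14 kinases and partners 4 did, and of 7 related receptors 2 did (Esrrb and Esrra). These counts stand beside the 32.5% of all tested genes with a called shared rhythm, and no difference between lists was tested. The lists were chosen with earlier results of these libraries known, so these counts are descriptions.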

How the data were processed

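The table deposited by the authors gives raw counts, whole numbers without normalization, of 39017 Ensembl genes in 36 libraries. Per the file headers it also gives a length per gene, without saying how it was defined. Per the submitters' processing notes, reads were aligned with STAR 2.4.0i to mm10. Per the labels' protocols, libraries were made with a strand-specific messenger RNA kit and read as 100 bases from 1 end in pools of 6. The sources used here do not state the counting program, the annotation or the strand setting. Column names give times 1 h earlier than the labels for 30 of 36 columns, and labelled times were used. GENCODE M21 gave symbols and coordinates for 37607 IDs (96.4%).

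Tests ran in edgeR 4.0.16 (R 4.3.3), with TMM scaling and the quasi-likelihood functions glmQLFit and glmQLFTest. After filterByExpr, 22556 genes stayed, and 0.0779% of counts belonged to the 16461 others. TMM factors lay between 0.981 and 1.03. Tests used 12 group means (24 residual degrees of freedom), or a mean, cosine and sine of 24 h per status (30 residual degrees of freedom). P-values were adjusted over all tested genes by Benjamini-Hochberg, with a threshold of 0.05. CPM use TMM library sizes. TPM use the deposited length. Ratios were tested with 100000 permutations of status within times. The tests of ADX against sham and of rhythm were also checked on simulated data. Effects were planted only in genes well above the level of Hsd11b2, so that check does not cover Hsd11b2. Most of the smallest planted effects were missed.

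Nothing states that libraries came from separate animals, so the spread behind the p-values is that between these samples and may be technical. Deviations from group means of libraries with the same number correlated between -0.103 and 0.112, with 1 of 18 pairs over 0.1, so the numbers were not taken to pair samples. The members and lists were chosen with earlier results of these data known. Named genes were the 7 members, up to 4 genes per list (any with a called difference first, then those whose shared rhythm had the smallest p) and the 3 genes most like each member. As alternatives, the fits were repeated in DESeq2 1.42.0, with its size factors in edgeR, without the filter, and with a replicate block, other pseudocounts, the times of the column names and a test of any difference between times. They were also repeated without each library, without 3 muscle-high libraries and without 5 libraries with Gh over 50 CPM. Leaving out each time and the exon-union length were added after seeing the data. Figures were drawn with matplotlib 3.10.9.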

Additional observations from a re-analysis of the deposited data

How the results depend on the processing

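Depth limits Hsd11b2 (11 to 59 counts per library), and small differences of the other members are limited by 3 libraries per group. The rhythms of Ncor1 in sham and of Ncor1 and Hsd11b2 shared by both statuses passed under all alternatives run. The adjusted p went up to 0.0146 for Ncor1 in sham, 0.00703 for shared Ncor1 and 0.0144 for shared Hsd11b2. A peak-to-trough cannot be negative, and peak times were not compared between alternatives. For the changes below, the cause was not tested, beyond fewer samples or other genes entering a fit.

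Without the filter on low counts, single-time calls over all genes numbered 1 at CT04, 2 at CT16 and 6 at CT20, rhythm in ADX 1411 genes and 0 members (Hsd11b2 adjusted p = 0.0745 in edgeR), and shared Hsd11b1 had 0.0515. DESeq2 called 630 genes over the mean of 6 times (1 member, Ncor1), 79 at CT04, 9 at CT12, 20 at CT16, 175 at CT20, 6 for the interaction and 1 for the difference in rhythm. With the replicate block, CT04 had 1 call and rhythm in ADX 0 members (Hsd11b2 adjusted p = 0.0586 in edgeR); no other call of a member changed with the block. Without the 3 muscle-high libraries there were 9 calls at CT04, 2 at CT12 and 0 at CT20, and shared Hsd11b1 had an adjusted p of 0.0756 in edgeR. Without the 5 libraries with Gh over 50 CPM there were 11 calls over the mean of 6 times, 2 at CT04 and 1 at CT08, 0 members were rhythmic in ADX (Hsd11b2 0.0660), and shared Hsd11b1 had 0.110. At the times of the column names, 0 members were rhythmic in ADX (Hsd11b2 0.0519). The test of any difference between times called 2 members in sham, with Hsd11b2 added. Rhythm in ADX called 0 members without CT04, CT08, CT16 or CT24, where Hsd11b2 had adjusted p between 0.0773 and 0.133. Shared Hsd11b1 failed without CT08 (0.108), CT12 (0.0746), CT20 (0.0716) or CT24 (0.294), and shared Nr3c2 passed without CT08 (0.0480) or CT20 (0.0183).

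Uncalled estimates changed sign as follows, in log2 units. Ncoa1 at CT24 was -0.00027 with DESeq2 size factors, -0.0045 without the filter, -0.00052 in DESeq2, -0.0020 without the muscle-high and -0.011 without the high-Gh libraries. Without the muscle-high libraries Hsd11b2 was 0.035 over the mean, -0.065 at CT12 and 0.13 at CT20. Without the high-Gh libraries Hsd11b2 was 0.021 over the mean and -0.0031 for the difference in rhythm, Nr3c2 was -0.087, Ncoa1 -0.036 and Ncoa2 0.070 at CT08, and Hsd11b1 was 0.044 at CT16 and 0.020 at CT24. The difference in rhythm became 0.059 for Nr3c2, 0.037 for Hsd11b1 and -0.056 for Hsd11b2 without CT08, 0.033 for Nr3c2 and 0.021 for Ncoa2 without CT12, 0.018 for Nr3c1, -0.0022 for Ncoa1 and 0.00066 for Ncoa2 without CT16, 0.017 for Ncoa2 without CT20, and 0.0055 for Nr3c2 and -0.0033 for Ncoa1 without CT24.

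Leaving out each library in turn gave between 21 and 302 calls over the mean of 6 times, 0 to 10 at CT04, 0 to 2 at CT12, 0 to 24 at CT16, 0 to 141 at CT20, 0 to 1 at CT24, 1334 to 2430 for rhythm in ADX and 0 to 1 for the difference in rhythm. Members called lay between 0 and 1 for rhythm in ADX and between 1 and 2 in sham. The ADX rhythm of Hsd11b2 was called without replicate 2 of ADX CT04, replicate 3 of ADX CT08, replicates 2 and 3 of ADX CT20, replicate 2 of sham CT08, replicates 2 and 3 of sham CT12, replicate 3 of sham CT16 or replicate 2 of sham CT20, and lost without any of the other 27. The shared rhythm of Hsd11b1 was lost without ADX CT12 replicates 1 and 2, ADX CT20 replicate 3, ADX CT24 replicates 2 and 3, sham CT08 replicates 1 and 2, sham CT20 replicate 2, or sham CT24 replicates 1 and 3. Hsd11b2 in sham passed without sham CT20 replicate 2 (0.0288), and shared Nr3c2 passed without ADX CT08 replicate 2, ADX CT20 replicate 2 or sham CT20 replicate 2. The receptor ratio difference lay between -0.10 and -0.073, with a permutation p between 0.0115 and 0.102 and under 0.05 in 13 of 36 fits.

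With a library left out, estimates that changed sign ranged over the mean between -0.0019 and 0.031 for Nr3c1, -0.076 and 0.032 for Hsd11b2, and -0.00039 and 0.011 for Ncoa2. At CT04 the ranges were -0.11 to 0.16 for Hsd11b2 and -0.0026 to 0.043 for Ncoa1. At CT08 they were -0.013 to 0.069 for Nr3c1, -0.035 to 0.11 for Nr3c2, -0.051 to 0.044 for Ncoa1, and -0.047 to 0.021 for Ncoa2. At CT12 they were -0.057 to 0.012 for Nr3c2, -0.16 to 0.18 for Hsd11b2, and -0.042 to 0.011 for Ncoa1. At CT16 Hsd11b1 ranged between -0.17 and 0.035 and Hsd11b2 between -0.050 and 0.25. At CT20 the ranges were -0.012 to 0.15 for Nr3c1, -0.092 to 0.15 for Nr3c2, -0.49 to 0.14 for Hsd11b2, -0.016 to 0.080 for Ncoa1, and -0.0060 to 0.043 for Ncoa2. At CT24 Hsd11b2 ranged between -0.0077 and 0.21 and Ncoa1 between -0.024 and 0.044. The difference in rhythm ranged between -0.10 and 0.072 for Nr3c2, -0.015 and 0.32 for Hsd11b2, and -0.0066 and 0.044 for Ncoa1.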

Other observations

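Transcripts of hormone synthesis and of the pituitary-adrenal axis were scarce. Of 11 steroidogenic genes 6 passed the filter on low counts, and 0 of them were called for ADX against sham or for any rhythm in edgeR. Cyp11a1, which makes pregnenolone from cholesterol, averaged 2.93 ± 0.50 CPM in ADX and 3.38 ± 0.65 CPM in sham (SD, n = 18 each), and the difference of -0.20 ± 0.071 in log2 units did not pass (edgeR adjusted p = 0.164). Star, the cholesterol transporter of mitochondria, averaged 1.47 ± 0.28 CPM in ADX and 1.60 ± 0.31 CPM in sham.

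Of 11 genes of corticotropin-releasing hormone and ACTH signalling 8 passed the filter. Mrap, the accessory protein of the ACTH receptor, averaged 3.46 ± 0.66 CPM in ADX and 3.96 ± 0.71 CPM in sham, with a difference of -0.19 ± 0.081 in log2 units (edgeR adjusted p = 0.233). Pomc, the ACTH precursor, averaged 3.44 ± 5.15 CPM in ADX and 19.0 ± 54.9 CPM in sham and was called rhythmic in sham alone (edgeR adjusted p = 0.0177). Pomc is also 1 of the 6 tested pituitary markers, of which 5 were called rhythmic in sham, where 16.08% of all genes were. The summed pituitary markers reached 1546 CPM in sham CT16 replicate 3, and 108 and 793 CPM in sham CT08 replicates 2 and 3. The part of that tissue in the call was not tested.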
